A study of Homo sapiens with 6 samples.

Results

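The genes of sterol and fatty acid synthesis were examined as a set of 42 genes, taken by symbol from a table of 20325 protein-coding genes. They comprise the SREBP transcription factors and their retention protein, sterol uptake and transfer proteins, the enzymes of the mevalonate and sterol pathways, and the enzymes that make, desaturate, elongate and esterify fatty acids. All 42 were listed in the table and 41 passed the filter on low counts; the elongase ELOVL7, with 8 to 22 reads per library, did not.

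The RNA came from SNU-668, an established gastric cancer cell line, in a form that the labels call erastin-resistant, erastin being a ferroptosis inducer that blocks cystine import. In the knockdown group (3 libraries) the resistant cells carried an shRNA against ALKBH3, a demethylase of alkylated nucleic acids, and in the control group (3 libraries, genotype label WT) the shRNA was a control marked NC. The sample titles of all 6 libraries begin with RLS3, a code with no stated meaning, and erastin is named in the protocol text alone. Transfection delivered the shRNA in both groups, and the medium was DMEM with fetal bovine serum. The labels mention re-plating but not the selection that gave resistance, nor which promoter drove the shRNA. They do not say how many shRNA sequences or clones were used or whether replicates were separate cultures. The p-values therefore weigh the group difference only against the scatter of these libraries, and that scatter may be technical. ALKBH3 itself had 95, 106 and 68 reads in knockdown cells, set against 326, 351 and 334 in control cells, which is -2.11 on the log2 scale (SE 0.137, edgeR adjusted p = 1.01e-10).

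Library totals ran from 14244932 to 17880183 counts. On the second principal component, with 18.4% of the variance, knockdown replicate 1 and control replicate 2 stood apart from the other libraries of their groups, and results that change without them are given both ways. The gastric epithelial markers TFF1, TFF2, MUC5AC, MUC6, GKN1 and CDX2 together summed to 0.0556 to 0.0664 CPM (reads scaled by library size) in knockdown libraries and 0 to 0.135 CPM in control libraries, so these markers were near 0, and CDH1 had 0 reads in all 6 libraries. Of 7 general epithelial markers 3 were tested and 2 rose, KRT8 and KRT18, the second at 193 ± 6.28 CPM in knockdown cells and 149 ± 10.5 CPM in control cells (SD, n = 3 each). Their part in the results below was not tested. The mesenchymal markers VIM, FN1 and CDH2 summed to 7290 to 7800 CPM in knockdown libraries and 7550 to 8120 CPM in control libraries. Of these 3 markers 0 rose and 0 fell in edgeR. Leukocyte markers summed to 0 to 3.95 CPM in knockdown libraries and 0.338 to 1.31 CPM in control libraries, and endothelial markers to 2.03 to 2.53 and 1.18 to 2.18 CPM.

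Cells match their lipid synthesis to need through the SREBP transcription factors, which are held in the endoplasmic reticulum membrane as precursors together with SCAP. When sterols are plentiful, INSIG proteins retain this complex; when sterols fall, it moves to the Golgi apparatus, where the proteases encoded by MBTPS1 and MBTPS2 release the active factor. SREBF2 products mainly drive cholesterol genes and SREBF1 products mainly fatty acid genes, and both raise INSIG1 transcription, which closes the feedback loop. Fatty acid desaturation and the mevalonate pathway bear on ferroptosis, since polyunsaturated acyl chains are the substrate of lipid peroxidation and the mevalonate pathway yields coenzyme Q.

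The promoter windows of 4 of the 5 members that passed the test are shown because SREBPs act with the CCAAT-binding factor NF-Y at short promoter sites. The windows are from RefSeq (GRCh38.p14) and run from 250 bases before to 50 bases after the annotated start of the gene. The first window listed was used for each gene, and 38 of the 42 members were matched. A window of ACAT2, the other member that passed, was not used here. Capitals mark a match on either strand to the CCAAT box (CCAAT), the sterol regulatory element core (TCACNCCAC) or the ATF4 composite site core (TGATGNAA). The windows are chr17:17836937-17837236 (minus strand) for SREBF1, chr5:43313363-43313662 (minus strand) for HMGCS1, chr7:155297628-155297927 (plus strand) for INSIG1 and chr4:82798747-82799046 (minus strand) for SCD5. That of SREBF2, chr22:41832855-41833154 (plus strand), was added after its match was seen, for comparison with its paralog.
SREBF1: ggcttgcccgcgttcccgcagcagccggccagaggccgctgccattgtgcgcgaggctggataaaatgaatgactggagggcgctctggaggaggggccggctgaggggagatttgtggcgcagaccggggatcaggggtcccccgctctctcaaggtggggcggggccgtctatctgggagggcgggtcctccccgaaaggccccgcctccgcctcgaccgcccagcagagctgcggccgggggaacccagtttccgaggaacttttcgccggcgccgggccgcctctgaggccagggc
SREBF2: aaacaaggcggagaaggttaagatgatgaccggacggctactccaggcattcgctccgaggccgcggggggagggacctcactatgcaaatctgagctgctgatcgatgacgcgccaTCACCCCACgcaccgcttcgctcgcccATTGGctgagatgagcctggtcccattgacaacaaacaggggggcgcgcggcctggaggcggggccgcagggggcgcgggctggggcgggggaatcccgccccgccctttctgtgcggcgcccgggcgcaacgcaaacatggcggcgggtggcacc
HMGCS1: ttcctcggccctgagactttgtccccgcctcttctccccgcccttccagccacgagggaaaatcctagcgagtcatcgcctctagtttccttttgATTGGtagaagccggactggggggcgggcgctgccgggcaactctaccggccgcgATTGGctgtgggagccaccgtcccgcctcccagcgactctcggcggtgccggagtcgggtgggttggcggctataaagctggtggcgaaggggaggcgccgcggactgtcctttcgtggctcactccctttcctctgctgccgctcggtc
INSIG1: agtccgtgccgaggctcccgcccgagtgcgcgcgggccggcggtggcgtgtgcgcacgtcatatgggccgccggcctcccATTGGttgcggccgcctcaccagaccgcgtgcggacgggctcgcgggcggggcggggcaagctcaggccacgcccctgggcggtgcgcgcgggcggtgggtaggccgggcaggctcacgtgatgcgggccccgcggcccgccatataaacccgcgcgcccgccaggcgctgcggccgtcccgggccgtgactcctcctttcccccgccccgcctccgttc
SCD5: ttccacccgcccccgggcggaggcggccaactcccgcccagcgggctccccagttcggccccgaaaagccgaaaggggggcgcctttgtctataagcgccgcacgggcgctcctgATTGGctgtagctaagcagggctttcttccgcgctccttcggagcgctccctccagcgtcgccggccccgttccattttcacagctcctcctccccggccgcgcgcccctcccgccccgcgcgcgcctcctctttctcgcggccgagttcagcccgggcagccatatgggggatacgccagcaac

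A CCAAT box occurred in 25 of the 38 member windows (65.8%), against 36.7% of the 9365 windows of tested genes and 35.7% of all 27305 windows. The HMGCS1 window held 2 CCAAT boxes, both on the opposite strand (ATTGG), those of INSIG1 and SCD5 held 1 each, and that of SREBF1 held no match to any of the 3 motifs. SREBF1 has isoforms that start at different promoters, and only its first listed window was searched. The sterol regulatory element core was found in 1 member window, that of SREBF2, where it begins at -133 relative to the start and lies beside a CCAAT box; 1.13% of the windows of tested genes and 1.15% of all windows held this core. The ATF4 core was found in 0 of the 38 windows, against 1.62% of the windows of tested genes and 3.67% of all windows. These matches describe the letters of the windows and not binding.

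Most sterol and fatty acid genes differed little between knockdown and control cells. The factor gene SREBF1 and the thiolase gene ACAT2 were higher in the knockdown, and the feedback gene INSIG1, the synthase gene HMGCS1 and the desaturase gene SCD5 were lower, each by less than 0.5 on the log2 scale. Of 41 tested members 2 rose and 3 fell, together 12.2% (edgeR adjusted p under 0.05), where 8.08% of all 12305 tested genes were called. By direction, 4.88% of members rose and 7.32% fell, beside 3.96% and 4.12% of all tested genes. With all 6 libraries in the fit, the share of members called thus lay near the background. Since the RNA is bulk, fewer cells with a transcript and less of it per cell cannot be told apart.

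The median log2 fold change of the members was 0.03 and their median size 0.14, against 0.01 and 0.13 over all tested genes. No member changed by 2-fold or more: the values ran from -0.41 for SCD5 to 0.51 for TM7SF2, which was not called. An unadjusted p under 0.05 was found for 14 members (34.1%), 10 of them with a positive and 4 with a negative fold change, beside 22.2% of all tested genes. The groups did not overlap in 9 members that were higher in every knockdown library (22.0%) and in 5 that were lower (12.2%), beside 13.3% of all tested genes in each direction. Members were more abundant than the average gene, with a median of 77.4 CPM in the controls against 30.6 CPM over all tested genes. Their summed level was 3841, 4071 and 4013 CPM in the knockdown libraries and 4063, 3860 and 4017 CPM in the controls, so the groups overlapped. With library totals as the only scaling, 4 members rose and 1 fell, and the calls over all genes divided into 610 higher and 417 lower, against 487 and 507 with TMM scaling.

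**Figure D1:**
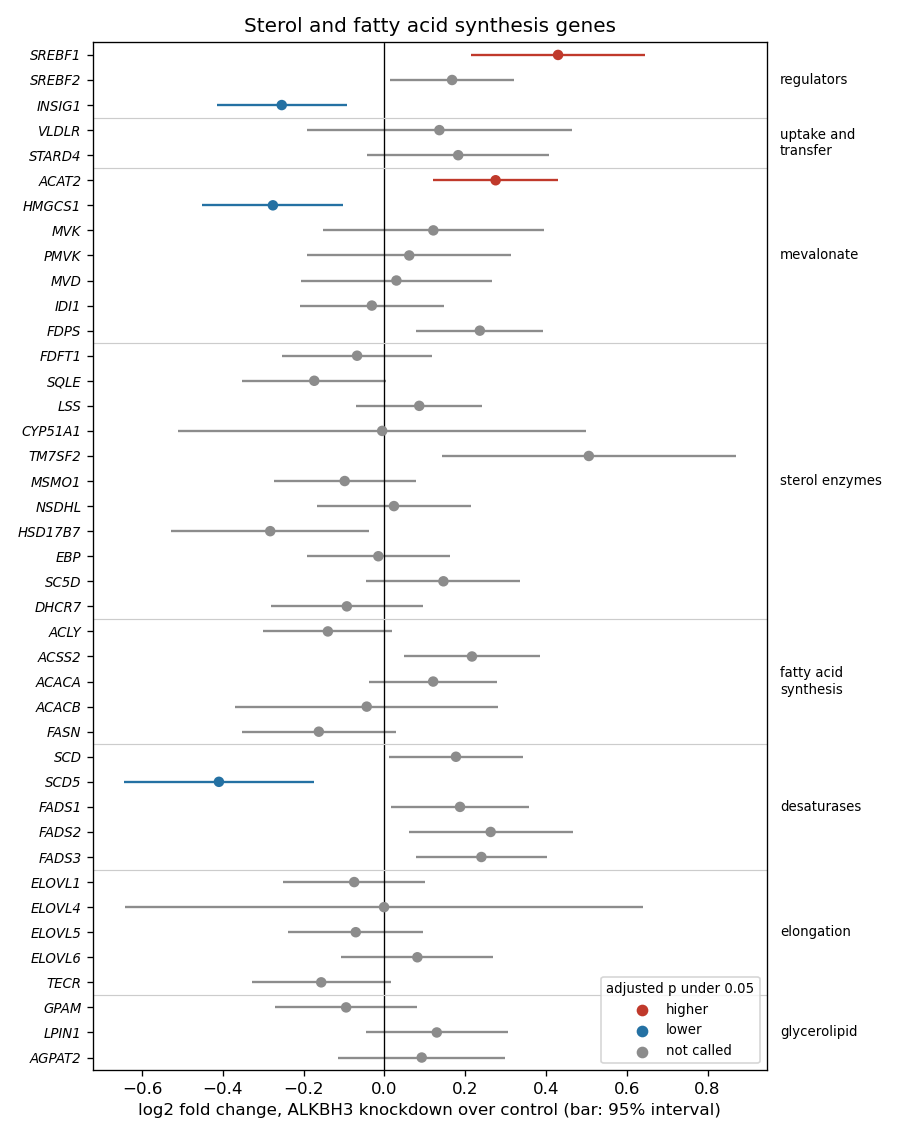
Log2 fold change of each of the 41 tested members, ALKBH3 knockdown over control (horizontal axis), grouped by role from top to bottom; points are estimates, bars are 95% intervals, and red and blue mark members higher or lower at an adjusted p under 0.05. The 2 red and 3 blue members lie within 0.5 of zero, and members of both signs occur in every role except uptake and transfer.

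Among the regulators, both SREBP genes had positive fold changes and INSIG1 a negative one. SREBF1 (ENSG00000072310; hg19 chromosome 17, 17713713 to 17740325, minus strand) was at 27.5, 31.1 and 28.3 CPM in the knockdown libraries and at 21.2, 20.9 and 22.4 CPM in the controls. Every knockdown library lay above every control library. The means were 28.97 ± 1.91 CPM in knockdown cells and 21.5 ± 0.787 CPM in control cells (SD, n = 3 each), a ratio of 1.35 and a log2 fold change of 0.43 (SE 0.105, edgeR adjusted p = 0.0105). The call was lost without knockdown replicate 2 (0.37, adjusted p = 0.0898) and held in the other 5 fits that left out 1 library. Counts per gene do not separate the SREBF1 isoforms that start at different promoters. SREBF1 overlaps RAI1 by 1055 bases on the opposite strand, and RAI1 had 0.02 (adjusted p = 0.939).

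SREBF2, whose product mainly drives cholesterol genes, was more abundant than SREBF1 and did not pass the test. It was at 154, 144 and 144 CPM in the knockdown libraries and at 134, 127 and 132 CPM in the controls. These groups did not overlap either, yet the difference was small, with a log2 fold change of 0.17 and a 95% interval of 0.01 to 0.32 (edgeR adjusted p = 0.183). Per kb of exon, SREBF2 was at 27.4 in knockdown cells and 24.4 in control cells and SREBF1 at 6.45 and 4.79 (CPM per kb of merged exons).

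INSIG1 (ENSG00000186480; hg19 chromosome 7, 155089486 to 155101945, plus strand), which retains the SREBP precursors and is itself an SREBP target, was lower in the knockdown. It was at 224, 230.0 and 232 CPM in the knockdown libraries and at 292, 254 and 272 CPM in the controls. The 3 knockdown libraries lay close together below the lowest control, control replicate 2. On the log2 scale the difference was -0.25 (SE 0.0782, edgeR adjusted p = 0.0441). The call was lost with library totals as the only scaling (adjusted p = 0.0735) and in 5 of the 6 fits without 1 library: control replicate 1 (0.148) or 3 (0.0712), and knockdown replicate 1 (0.0957), 2 (0.147) or 3 (0.121). Without both control replicate 2 and knockdown replicate 1 it passed (-0.29, adjusted p = 0.0388).

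**Figure D2:**
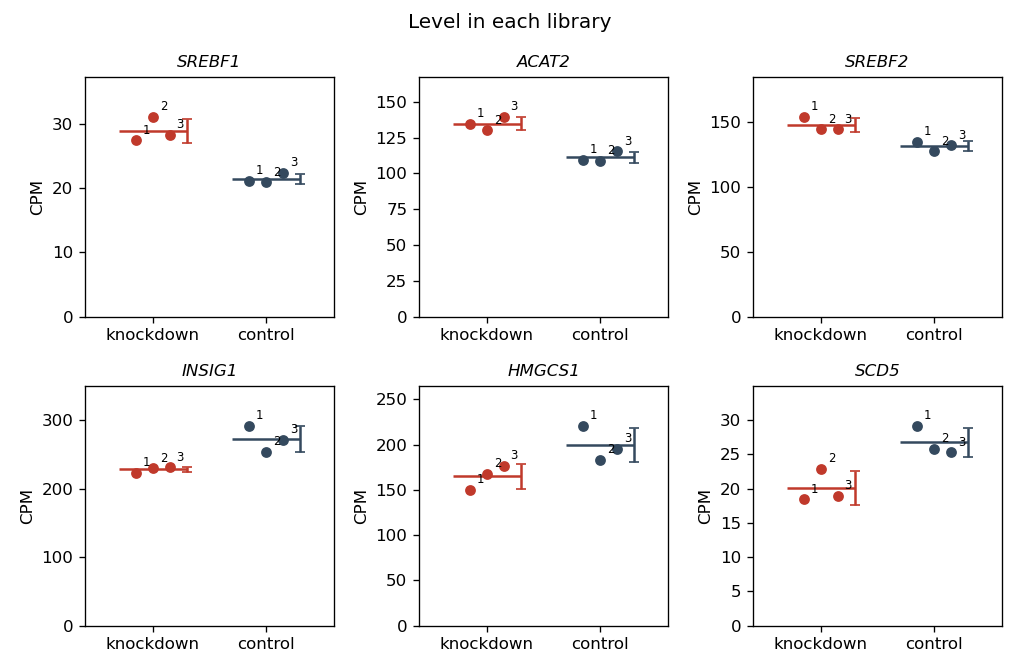
Level in CPM (vertical axis, from 0) of the 5 called members and SREBF2 in each library, knockdown in red on the left and control in dark blue on the right; numbers are replicates, lines the means and bars the SD over 3 libraries. In all 6 genes the groups do not overlap, with SREBF1, ACAT2 and SREBF2 above and INSIG1, HMGCS1 and SCD5 below the controls. Of these 6 genes 5 are shown because they were called. Over all tested genes the groups did not overlap in 13.3% in each direction.

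The genes of the first steps of the mevalonate pathway had fold changes of opposite sign, and the difference between them was not tested. ACAT2, the cytosolic thiolase that joins acetyl-CoA units to acetoacetyl-CoA, was at 135, 130.0 and 139 CPM in the knockdown libraries and at 109, 109 and 116 CPM in the controls. The groups were well separated, with means of 135 ± 4.68 CPM in knockdown cells and 111 ± 3.69 CPM in control cells (SD, n = 3 each). It was higher by 0.28 on the log2 scale (SE 0.0755, edgeR adjusted p = 0.0233). The call was lost without control replicate 1 (0.0590) or 2 (0.0644), without knockdown replicate 2 (0.0622) or 3 (0.121), and without both control replicate 2 and knockdown replicate 1 (0.0783). In hg19 ACAT2 (ENSG00000120437; chromosome 6, 160181360 to 160200144, plus strand) overlaps SOD2 by 2202 bases and TCP1 by 615 bases on the opposite strand. These neighbours had log2 fold changes of -0.07 and -0.12 and were not called (edgeR adjusted p = 0.631 and 0.455).

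HMGCS1 (ENSG00000112972; hg19 chromosome 5, 43289497 to 43313614, minus strand), which condenses acetoacetyl-CoA with acetyl-CoA to HMG-CoA, was lower. It was at 150.1, 168 and 176 CPM in the knockdown libraries and at 220.5, 183 and 195 CPM in the controls. Knockdown replicate 1 was the lowest and control replicate 1 the highest, and knockdown replicate 3 was close to control replicate 2. On the log2 scale the difference was -0.28 (SE 0.0847, edgeR adjusted p = 0.0434). It was not called with library totals as the only scaling (0.0699), without control replicate 1 (0.182) or 3 (0.0583), without knockdown replicate 1 (0.165), 2 (0.114) or 3 (0.0518), or without both libraries that stand apart (0.0685).

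Of the 7 mevalonate enzymes, 1 rose and 1 fell, and the median log2 fold change was 0.06. Over all tested genes 3.96% rose and 4.12% fell. FDPS, which makes farnesyl diphosphate, the branch point to sterols and prenyl groups, was at 188, 197 and 204 CPM in the knockdown libraries and at 169.6, 158 and 173 CPM in the controls. The groups did not overlap, and the log2 fold change of 0.24 just missed the threshold (edgeR adjusted p = 0.0562). FDPS passed with library totals as the only scaling (0.0353), in DESeq2 (0.0390) and without knockdown replicate 1 (0.0480). It did not pass without both knockdown replicate 1 and control replicate 2 (0.0912). The kinases MVK and PMVK, the decarboxylase MVD and the isomerase IDI1 had log2 fold changes of 0.12, 0.06, 0.03 and -0.03.

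Of the 11 enzymes from squalene synthesis onward, 0 passed in edgeR, and DESeq2 and limma-voom called none of them. An unadjusted p under 0.05 was found for 2, beside 22.2% of all tested genes. SQLE, the oxygenase that commits squalene to sterols, was at 94.4, 102 and 97.5 CPM in the knockdown libraries and at 126, 98.0 and 108 CPM in the controls. Control replicate 2 lay within the knockdown range, and the log2 fold change was -0.17 with a 95% interval of -0.35 to 0.00 (edgeR adjusted p = 0.240). TM7SF2, a sterol C14 reductase with few reads, was at 6.12, 8.74 and 7.58 CPM in the knockdown libraries and at 5.07, 5.69 and 5.01 CPM in the controls. The groups did not overlap, and the log2 fold change was 0.51 (edgeR adjusted p = 0.0791), or 0.64 without knockdown replicate 1 (adjusted p = 0.0428). HSD17B7, a 3-ketosteroid reductase of the pathway, had -0.28 (adjusted p = 0.153), with 16.2, 20.7 and 21.9 CPM in the knockdown libraries below the 23.2, 24.2 and 23.96 CPM of the controls.

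The other sterol enzymes had log2 fold changes between -0.10 and 0.15 and overlapping groups. They are FDFT1 (squalene synthase, -0.07), LSS (lanosterol synthase, 0.09), CYP51A1 (lanosterol demethylase, -0.01), MSMO1 and NSDHL (which remove the C4 methyl groups, -0.10 and 0.02), EBP (sterol isomerase, -0.02), SC5D (sterol desaturase, 0.15) and DHCR7 (which makes cholesterol from its dehydro precursor, -0.09). FDFT1 was at 189, 189.9 and 188 CPM in the knockdown libraries and at 209, 165 and 221 CPM in the controls, so the controls spread widely on both sides of the knockdown level. CYP51A1 had only 33 to 72 reads per library in the knockdown and 44 to 53 in the controls. In hg19 it shares 30794 bases with LRRD1 on the same strand, and how reads shared by both were counted is not given in the sources used here.

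Sterol uptake and transfer genes gave no call in edgeR, with 0 of 2 at an unadjusted p under 0.05 and 0 called by DESeq2 or limma-voom. VLDLR, a lipoprotein receptor, was at 9.23, 9.70 and 8.51 CPM in the knockdown libraries and at 6.55, 9.94 and 8.46 CPM in the controls, with the highest and the lowest value both in controls. STARD4, which carries sterols between membranes, had a log2 fold change of 0.18 (edgeR adjusted p = 0.340).

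Among genes of fatty acid synthesis, 0 of 5 passed in edgeR, and DESeq2 and limma-voom called none. An unadjusted p under 0.05 was found for 1 of them, beside 22.2% of all tested genes. FASN, the multifunctional synthase, was at 247, 210.2 and 189.7 CPM in the knockdown libraries and at 262, 219 and 244 CPM in the controls. Knockdown replicate 1 lay within the control range, and the log2 fold change was -0.16 (edgeR adjusted p = 0.309). Without both knockdown replicate 1 and control replicate 2 it was -0.34 and passed (adjusted p = 0.0241). The enzymes that supply cytosolic acetyl-CoA differed in sign: ACLY, which cleaves citrate, had -0.14, and ACSS2, which activates acetate, had 0.22 (adjusted p = 0.294 and 0.108), each without overlap between groups. The carboxylases ACACA and ACACB had 0.12 and -0.04.

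Among the 5 desaturases 0 rose and 1, SCD5, fell, and all 5 had an unadjusted p under 0.05, 4 with a positive and 1 with a negative fold change. Over all tested genes 3.96% rose, 4.12% fell and 22.2% had an unadjusted p under 0.05. SCD5, a stearoyl-CoA desaturase paralog (ENSG00000145284; hg19 chromosome 4, 83550692 to 83720010, minus strand), was at 18.5, 22.9 and 18.9 CPM in the knockdown libraries and at 29.2, 25.8 and 25.3 CPM in the controls. The groups did not overlap, and the means were 20.1 ± 2.46 CPM in knockdown cells and 26.8 ± 2.09 CPM in control cells (SD, n = 3 each). On the log2 scale the difference was -0.41 (SE 0.114, edgeR adjusted p = 0.0255). It did not pass when control replicate 1 (0.106), knockdown replicate 1 (0.104) or knockdown replicate 3 (0.111) was left out, nor without both libraries that stand apart (0.109).

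SCD, the main stearoyl-CoA desaturase, went the other way without passing. It was at 226, 264 and 261 CPM in the knockdown libraries and at 217, 231 and 216 CPM in the controls, with knockdown replicate 1 below the highest control. The log2 fold change was 0.18 (edgeR adjusted p = 0.192), and 0.28 without both knockdown replicate 1 and control replicate 2 (adjusted p = 0.0414). The paralogs thus had fold changes of opposite sign; the difference between them was not tested. Per kb of exon SCD was the more abundant, at 46.7 in knockdown cells and 41.3 in control cells, beside 4.69 and 6.24 for SCD5 (CPM per kb of merged exons).

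The fatty acid desaturases FADS1 and FADS2, which act in turn in making long polyunsaturated fatty acids, and their neighbour FADS3 lie side by side on chromosome 11 and had positive fold changes. FADS2 was at 76.2, 106 and 96.1 CPM in the knockdown libraries and at 78.7, 80.5 and 72.9 CPM in the controls. Knockdown replicate 1 was at the control level and the other knockdown libraries above it. The log2 fold change was 0.26 (edgeR adjusted p = 0.106), or 0.39 without knockdown replicate 1 (adjusted p = 0.00686), and it also passed when no filter on low counts was used (0.0348). FADS1 followed the same order, at 153, 189 and 179.9 CPM in the knockdown libraries and 146, 152 and 161 CPM in the controls. Its log2 fold change was 0.19 (edgeR adjusted p = 0.183), or 0.27 without knockdown replicate 1 (adjusted p = 0.0460). Without both knockdown replicate 1 and control replicate 2, FADS1 had 0.27 and did not pass (adjusted p = 0.0686). FADS3 was higher in every knockdown library, at 102, 103 and 96.4 CPM against 83.1, 81.8 and 90.1 CPM in the controls, with 0.24 (adjusted p = 0.0586, or 0.0363 with library totals). FADS1 and FADS2 overlap by 29692 bases on opposite strands, so part of their reads could be divided between them. FADS2 also overlaps FEN1 by 4265 bases on the same strand. FEN1 was at 75.8 CPM in knockdown cells and 88.9 CPM in control cells (log2 fold change -0.23, edgeR adjusted p = 0.152).

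**Figure D3:**
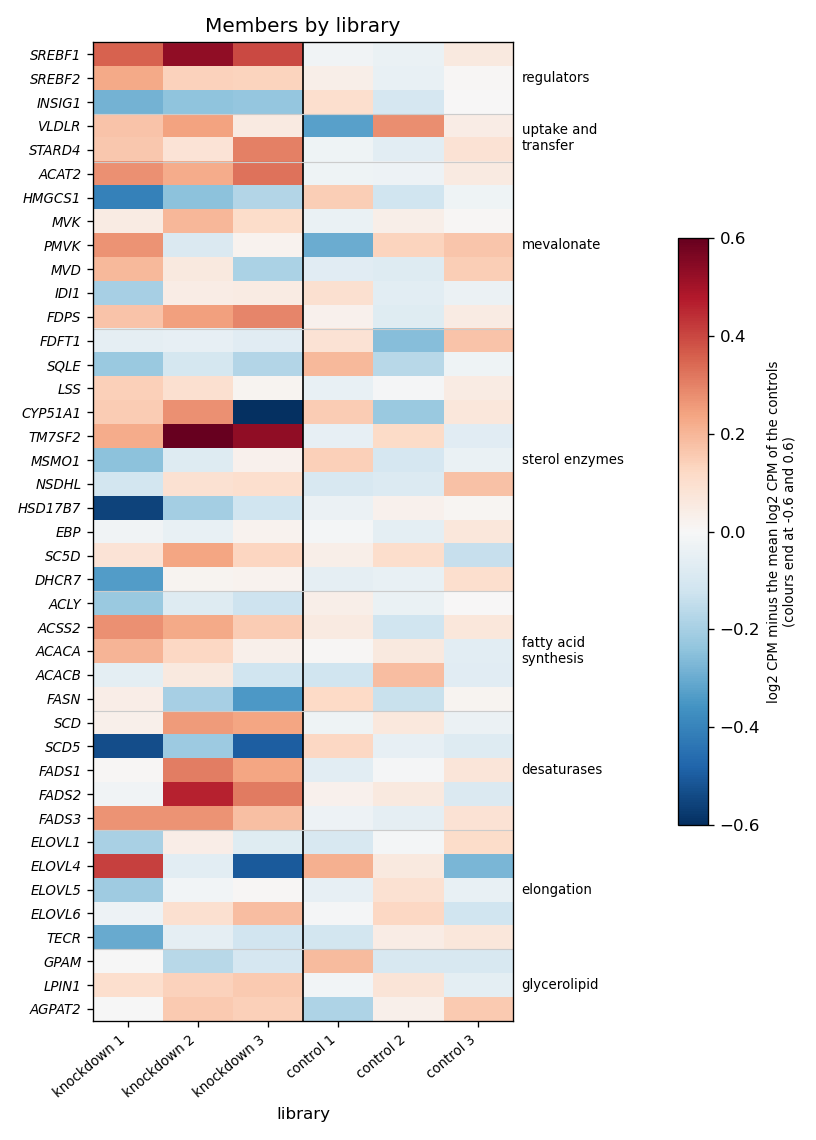
Log2 CPM of each tested member (rows, by role) in each library (columns, knockdown left and control right), minus the mean of the 3 controls; red is above and blue below that mean, and colours end at -0.6 and 0.6. SREBF1 is red and INSIG1 blue in all 3 knockdown libraries, while FADS1 and FADS2 are clearly red in knockdown replicates 2 and 3 and near white in replicate 1.

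Elongation and glycerolipid genes differed little. Of 5 tested elongation genes and 3 glycerolipid genes 0 passed in edgeR, 0 had an unadjusted p under 0.05, and DESeq2 and limma-voom called none. The elongases ELOVL1, ELOVL4, ELOVL5 and ELOVL6 had log2 fold changes of -0.08, -0.00, -0.07 and 0.08, and the reductase TECR, which completes each elongation cycle, had -0.16 (adjusted p = 0.276). TECR overlaps the heat shock gene DNAJB1 by 12686 bases on the opposite strand, and DNAJB1 was lower, with -0.52 (edgeR adjusted p = 9.06e-04). GPAM, which starts glycerolipid synthesis, the phosphatidate phosphatase LPIN1 and the acyltransferase AGPAT2 had -0.10, 0.13 and 0.09. ELOVL7, which was not tested, had 0.501, 0.846 and 0.532 CPM in the knockdown libraries and 0.634, 1.44 and 0.609 CPM in the controls.

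For the 36 members that were not called, the intervals bound the difference between these libraries only. They rest on the scatter of the libraries, which may be technical. In 32 of these members the 95% interval lay wholly between -0.5 and 0.5 on the log2 scale. The exceptions were CYP51A1 (-0.51 to 0.50), TM7SF2 (0.14 to 0.87), HSD17B7 (-0.53 to -0.04) and ELOVL4 (-0.64 to 0.64), and apart from HSD17B7 each of them was below 10 CPM.

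Levels per exon length differed more between members than between groups. Exon lengths were available for 40 tested members. Per kb of merged exons FDPS was the most abundant, at 119 CPM in knockdown cells and 101 CPM in control cells, followed in the controls by INSIG1 (74.1 in knockdown and 88.4 in control), TECR (71.4 and 79.5), ACLY (65.0 and 71.7) and MSMO1 (61.5 and 65.9). In the control libraries each member from INSIG1 to MSMO1 overlapped with the next in this order, MSMO1 with ELOVL5 (60.2 and 63.2), so these ranks are not separated. The lowest were ELOVL4 (0.618 and 0.625), ACACB (0.782 and 0.806), VLDLR (0.998 and 0.908) and CYP51A1 (0.993 and 1.01). In their control libraries VLDLR overlapped with both CYP51A1 and ACACB, while ELOVL4 lay below ACACB without overlap. In the knockdown libraries ELOVL4 and ACACB overlapped. How reads shared by CYP51A1 and LRRD1 on the same strand were counted is not given, so the rank of CYP51A1 is uncertain. Within the mevalonate enzymes the kinase MVK was far below the rest, at 3.99 in knockdown cells and 3.67 in control cells.

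**Figure D4:**
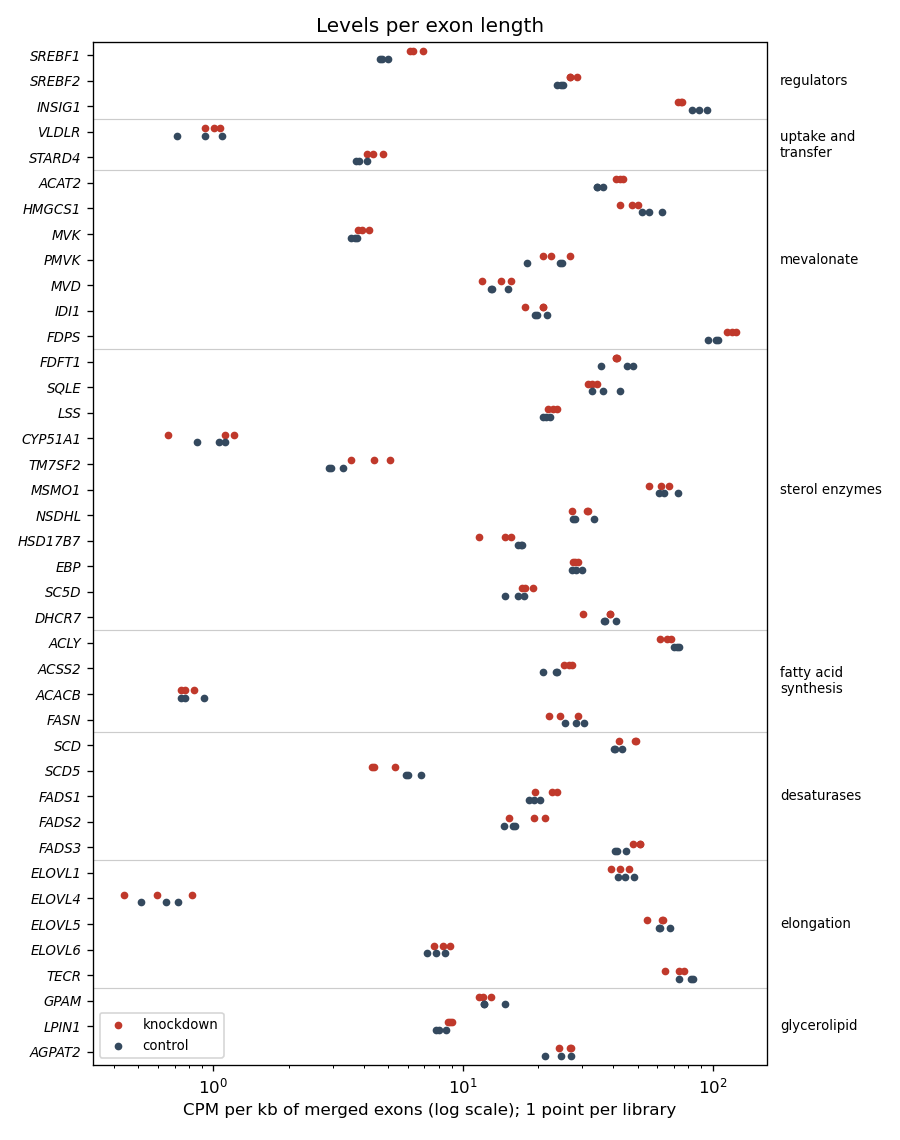
Level of 40 tested members per kb of merged exons (horizontal log axis, CPM per kb), by role from top to bottom; each point is 1 library, knockdown in red and control in dark blue. FDPS lies highest, at 119 in knockdown and 101 in control cells, and ELOVL4 has the lowest mean in both groups, with its red points overlapping those of ACACB, and the red and blue points of most members overlap.

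The members also varied between replicates of a group. Knockdown replicate 1 was the lowest knockdown library in 24 of 41 members and the lowest of all 6 libraries in 13, and control replicate 2 was the lowest control in 18. Among INSIG1 and the 18 mevalonate and sterol enzymes, knockdown replicate 1 was the lowest of its group in 12 of 19 and control replicate 2 in 11 of 19. The mean log2 level of the 11 sterol enzymes, relative to the control mean, was -0.09, 0.09 and -0.01 in the knockdown libraries and 0.03, -0.06 and 0.03 in the controls, so the groups overlapped. That of the 5 desaturases was -0.05, 0.22 and 0.10 in the knockdown libraries and 0.01, 0.00 and -0.01 in the controls. Without both libraries that stand apart, 4 members rose (SREBF1, SCD, FADS2 and TM7SF2) and 2 fell (INSIG1 and FASN), beside 384 higher and 358 lower over all genes. Without knockdown replicate 1 alone, 6 rose (SREBF1, ACAT2, FDPS, TM7SF2, FADS1 and FADS2) and 0 fell, beside 374 higher and 348 lower over all genes. With all 6 libraries 2 of 41 members rose and 3 fell, beside 487 higher and 507 lower of 12305 genes. Leaving out knockdown replicate 1 thus gave more members called higher, while fewer genes were called higher over all. Shares of tested genes were computed for the fit to all 6 libraries only. Without knockdown replicate 2, 0 rose and 1, SCD5, fell (adjusted p = 0.0171), beside 312 and 288 over all genes.

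Other genes of the pathway were taken from lists of its known parts. Of 14 tested genes of SREBP processing and sterol handling, 1 rose and 0 fell, beside 3.96% and 4.12% of all tested genes. An unadjusted p under 0.05 was found for 3, beside 22.2% of all tested genes, and DESeq2 and limma-voom each called 1. The 1 that rose was MBTPS1, the protease that makes the first cut in SREBP precursors, at 132, 129.7 and 125 CPM in the knockdown libraries against 109, 107 and 102 CPM in the controls. Its groups did not overlap and it was higher by 0.28 on the log2 scale (SE 0.0756, edgeR adjusted p = 0.0212). ABCG1, a sterol exporter, had a higher fold change than any member but few reads, with 23, 37 and 24 reads in knockdown cells and 12, 16 and 9 reads in control cells. Its groups did not overlap, and it was not called (0.98 on the log2 scale, SE 0.363, edgeR adjusted p = 0.101). SCAP, INSIG2 and MBTPS2 had -0.04, -0.22 and 0.00 (adjusted p = 0.814, 0.277 and 0.996).

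Of 12 other isoprenoid and acetyl-CoA genes, 16 other tested fatty acid and glycerolipid genes and 17 tested fatty acid oxidation genes, 0 rose and 0 fell in edgeR. An unadjusted p under 0.05 was found for 4, 2 and 1 of them, beside 22.2% of all tested genes. DESeq2 and limma-voom called 0 of them. The median log2 fold changes of the 3 lists were -0.07, -0.01 and 0.00, beside 0.01 over all tested genes.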

How the data were processed

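Polyadenylated RNA of 6 libraries was sequenced in stranded paired reads, per the labels' protocols. The table deposited by the authors holds raw read counts per gene, per the file headers; named in the submitters' processing notes are hg19, DESeq2, featureCounts 2.0, STAR 2.7.9a and fastp 0.20.0. Of counting settings, annotation release and strand use nothing is stated, so reads of overlapping genes can be divided in an unknown way; 12 members overlap another listed gene. The 2 lines without values and the 6 columns of normalized counts were not used here.

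Genes were filtered with edgeR's filterByExpr (12305 kept), scaled with TMM and compared with edgeR 4.0.16 (glmQLFit with robust dispersion, glmQLFTest, R 4.3.3) on the group alone, knockdown over control. Every adjusted p is a Benjamini-Hochberg value over all 12305 genes, with calls under 0.05. Dividing the log2 fold change by the root of its F statistic gave the SE, from which 95% intervals were made. Levels per kb use merged exons of GENCODE 29 matched by gene identifier. Alternatives were DESeq2 1.42.0, limma-voom (limma 3.58.1), other scalings and filters, non-robust dispersion, the replicate number as a block and each library left out. The fit was tested on simulated counts. Members, lists and motifs were chosen with earlier results of these data known. Every member is named, and those called, with SREBF1, SREBF2, INSIG1, SQLE, FASN and SCD, are given by library; other members given by library (FDPS, FDFT1, TM7SF2, HSD17B7, VLDLR, FADS1, FADS2, FADS3, ELOVL7) were chosen after their values were seen, as were the related genes ABCG1, SCAP, INSIG2 and MBTPS2.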

Additional observations from a re-analysis of the deposited data

How the results depend on the processing

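ALKBH3 stayed lower in the knockdown, and called, under every alternative run. The calls over all genes were 312 to 433 higher and 285 to 423 lower when 1 library was left out, against 487 and 507; without knockdown replicate 2 they were 312 and 288, and without knockdown replicate 3 those lower were 285. The members called higher (2) came to 4 when only library totals were scaled for, to 4 without both control replicate 2 and knockdown replicate 1 (chosen after seeing the data), and to 0 to 6 when 1 library was left out. The members called lower (3) numbered 1 with library totals and 0 to 3 when 1 library was left out. SREBF1, INSIG1, ACAT2, HMGCS1 and SCD5 kept their sign in every fit, but fits without 1 library have fewer samples and lost 1, 5, 4, 5 and 3 of the 6 calls.

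Some members that were not called changed sign. With library totals CYP51A1 was at 0.0195, EBP at 0.0106 and ELOVL4 at 0.024. Without both libraries MVD was at -0.10, IDI1 at 0.015, ACACB at 0.0681 and ELOVL5 at 0.0431 (ELOVL5 without 1 library ran from -0.1112 to -0.0049). When 1 library was left out, VLDLR ran from -0.0075 to 0.28, PMVK from -0.0723 to 0.14, MVD from -0.06 to 0.13, IDI1 from -0.0727 to 0.0466, FDFT1 from -0.19 to 0.0182, CYP51A1 from -0.17 to 0.21, NSDHL from -0.0242 to 0.12, EBP from -0.0451 to 0.0206, DHCR7 from -0.15 to 0.0165, ACACB from -0.10 to 0.06, ELOVL4 from -0.27 to 0.18 and GPAM from -0.14 to 0.0068 on the log2 scale. The cause was not tested.

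Deviations of same-numbered libraries correlated at 0.06, 0.11 and -0.06, and those of differently numbered libraries at -0.15 to 0.09. Since each group has 3 libraries, these values do not settle whether the replicate numbers pair the libraries. With the number as a replicate block, 3 members rose and 3 fell (FDPS was added, adjusted p = 0.0399), and 587 and 647 genes were called. Members that were not called are not shown to be unchanged. TM7SF2 (0.51, SE 0.177) and HSD17B7 (-0.28, SE 0.119) missed the threshold with differences as large as those of called members.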
